A study of Mus with 2 samples.

Results

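The AP-1 transcription factor family was described across kidney cell clusters of senescent and of young C57BL/6 mice. Its members were taken as every entry of the authors' deposited table, in any cluster, named Fos, Fosb, Fosl1, Fosl2, Jun, Junb, Jund, Atf3 or Batf. Of these 9 genes, 8 were listed, in 33 of the 20111 entries of the table, which names 8191 genes in all. Fosl1 was listed in no cluster. Dissociated whole kidneys were sequenced as single cells in droplets, in 1 library of senescent mice and 1 library of young mice, for which the series states 4408 cells and 10895 cells. The labels give the same digestion with collagenase IV, pronase E and DNase I for both libraries. The sources used here give neither the ages, number or sex of the mice nor the cells per cluster. The 7 clusters of the table keep the authors' names, which are PT, LOH and endo and, for immune cells, Marco, T, B and Neutro.

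Each value below is the authors' mean of scaled expression per cell of a cluster in 1 library, so no SD can be given and no difference between mice was tested. A gene stands in the table for a cluster only where its p-value was under 0.05 and its absolute log2 fold change at least 0.36. Absence from the table is thus no sign of an equal level. The adjusted p that the authors' deposited table gives reflects variation among cells, not among mice. An entry was counted as called where that adjusted p was at most 0.05 and the absolute log2 fold change at least 1. A log2 ratio here is log2 of senescent over young with 1 added to both means, which understates the change of low genes.

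AP-1 is a family of dimeric transcription factors that bind DNA through a basic leucine zipper. Jun proteins pair with each other or with Fos proteins, whereas Fos proteins need a partner such as a Jun protein. Fos, Fosb, Jun, Junb and Atf3 are immediate early genes, which are transcribed within minutes of growth factor, cytokine or stress signals through MAP kinases, and they are also known to respond to enzymatic tissue dissociation. Jund is more constantly expressed in most tissues.

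Most of the genes lie apart in the genome, but Fos and Batf are close together on chromosome 12. In build mm10 (GRCm38), Jun (ENSMUSG00000052684) is on chromosome 4 from 95049036 to 95052222. Junb (ENSMUSG00000052837) is on chromosome 8 from 84976909 to 84978748, and Jund (ENSMUSG00000071076) on the same chromosome from 70697739 to 70700616. Fos (ENSMUSG00000021250) is on chromosome 12 from 85473890 to 85477274, and Batf (ENSMUSG00000034266) lies on that chromosome from 85686720 to 85709087. Fosb (ENSMUSG00000003545) is on chromosome 7 from 19302696 to 19310118, Fosl2 (ENSMUSG00000029135) on chromosome 5 from 32136472 to 32157840 and Atf3 (ENSMUSG00000026628) on chromosome 1 from 191170296 to 191183333. All are annotated as protein coding, and each value is for the whole gene.

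All 33 entries had the higher mean in the senescent library, but 6 of the 23 entries in PT, Marco, T and B changed direction once the means were set against the cluster's own marker genes (described further on). The PT entries could not do so, because the median marker of PT was itself lower in the senescent library. The ratio of senescent to young means ran between 1.79 (Jun in B) and 89.4 (Fosb in PT) in the 31 entries with a young mean above 0. Of the 33 entries, 22 were called higher and 0 lower in the authors' deposited table, and the 22 belonged to 7 genes. The other 11 had an adjusted p above 0.05. Among all listed genes, the share with a higher mean in the senescent library was 78.4% in PT, 47.8% in LOH, 48.2% in endo, 58.3% in Marco, 44.8% in T, 28.2% in B and 6.35% in Neutro. The share called lower was 5.6% in PT, 6.87% in LOH, 0.584% in endo, 23.6% in Marco, 20.7% in T, 15.5% in B and 0% in Neutro. In PT 5035 of the 5037 listed genes had an adjusted p of at most 0.05, so a call there rests on the fold limit. That share was 14.7% in LOH, 0.973% in endo, 49.4% in Marco, 30.7% in T, 19.7% in B and 0% in Neutro.

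In PT, 6 of the 9 members were listed and all 6 were called higher, where 57.2% of the 5037 listed genes were. In LOH 4 members were called higher of 5 listed, with a background of 2.16% of 1761 listed genes. In endo 2 were called higher of 5 listed, with a background of 0.389% of 1028 genes. In Marco 7 were called higher of 8 listed, with a background of 22.9% of 4462 genes. In T 2 were called higher of 5 listed, with a background of 3.85% of 4368 genes, and in B 1 of 4 listed, with a background of 2.79% of 3077 genes. In Neutro 0 members were listed, and 0% of its 378 listed genes were called. The smallest young mean above 0 in that cluster was 1.07. A member is listed only because its means differed, so these counts describe the entries and say nothing of the members that are not listed.

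The median log2 ratio of the listed members was 1.55 in PT, 1.38 in LOH, 2.36 in endo, 1.60 in Marco, 1.20 in T and 1.25 in B. Over all listed genes it was 0.23, -0.11, -0.11, 0.23, -0.11 and -0.27 in the same order of clusters. Ranked by log2 ratio, the highest member stood near the top in each of these 6 clusters. Fos ranked 1 of 4462 in Marco, 2 of 1761 in LOH and 3 of 3077 in B, Jun ranked 2 of 5037 in PT and 2 of 1028 in endo, and Junb ranked 2 of 4368 in T. The lowest members ranked 2094 of 5037 in PT (Fosl2), 47 of 1761 in LOH (Fosb) and 17 of 1028 in endo (Junb). In Marco and T the lowest was Batf, at 2082 of 4462 and 816 of 4368, and in B it was Jun, at 498 of 3077. This ranking favours abundant genes. By the log2 fold change in the authors' deposited table, which favours genes with very low young means, the highest ranks were 9 in PT and 13 in LOH (Fosb), 1 in endo, 57 in Marco and 85 in B (Fos), and 77 in T (Junb). The lowest by that measure were 1111 in PT, 424 in LOH and 1036 in Marco (Jund), 246 in endo (Junb), and 779 in T and 576 in B (Jun).

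**Figure D1:**
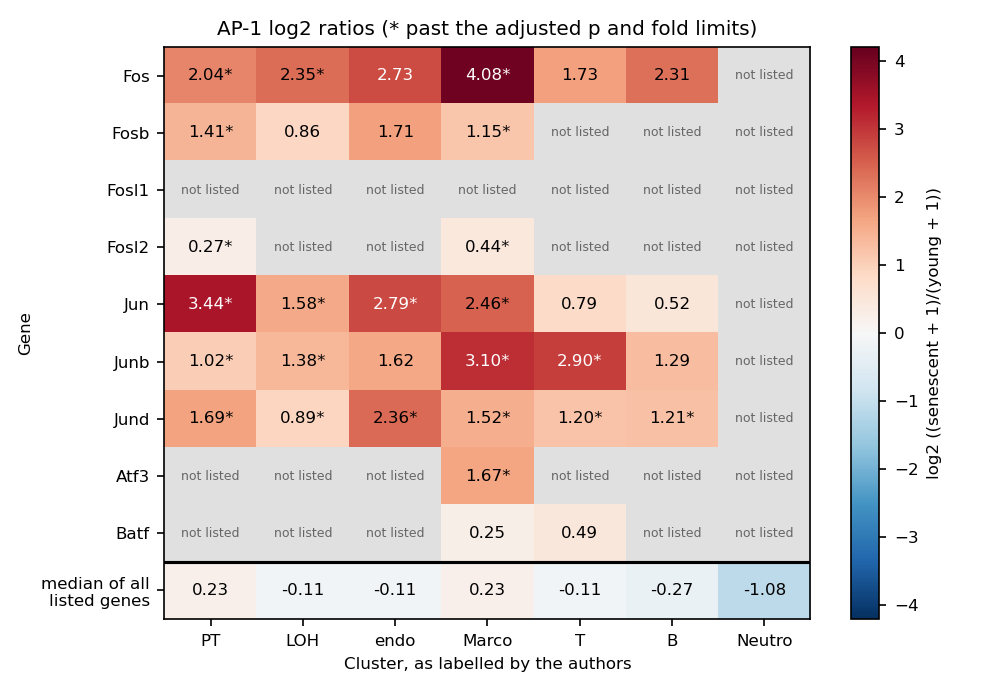
The map shows, for each AP-1 gene and cluster, log2 of senescent over young with 1 added to both means, with an asterisk where the entry passed the adjusted p and fold limits and grey where the gene is not listed. All 33 filled squares are above 0, between 0.25 and 4.08. Against the median of the cluster's own markers 6 fall below 0, a comparison made in PT, Marco, T and B only. The PT squares could not fall, because the median marker there was itself lower in the senescent library. The bottom row gives the median of all listed genes, between -1.08 and 0.23.

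Among the Jun genes, Jun encodes c-Jun, the main transactivating partner of the family. In PT, Jun had a mean of 16.2 in the senescent library, against 0.585 in the young library. In endo the means were 13.8 in senescent and 1.15 in young cells, in Marco 10.8 in senescent and 1.13 in young cells, and in LOH 5.91 in senescent and 1.31 in young cells. In T they were 2.28 in senescent and 0.891 in young cells, and in B 2.15 in senescent and 1.20 in young cells. The size of the difference thus varied widely, with ratios of 27.7 in PT, 12.0 in endo, 9.50 in Marco, 4.52 in LOH, 2.56 in T and 1.79 in B. The first 4 of these were called, with an adjusted p of 0 in PT, 0.00440 in endo, 9.11e-39 in Marco and 1.98e-05 in LOH in the authors' deposited table, whereas in T and B the adjusted p was 1. In T and in B the ratio of Jun was below that of the median marker of the cluster. Jun differed more between clusters in the senescent library, where the highest mean was 7.55 times the lowest, than in the young library, where it was 2.23 times the lowest. PT held the highest Jun mean of the senescent library and the lowest of the young library. With 1 library per group, neighbours in these orders cannot be told apart by any spread.

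Junb encodes a Jun protein that activates more weakly than c-Jun and is prominent in lymphoid and myeloid cells. Its means in the senescent library were 15.6 in Marco, 10.9 in T and 4.93 in B, and then 3.90 in endo, 3.55 in LOH and 1.34 in PT. In the young library they were 0.933 in Marco, 0.594 in T and 1.43 in B, and then 0.593 in endo, 0.748 in LOH and 0.154 in PT. The ratio was largest in T, at 18.3, followed by 16.7 in Marco, 8.71 in PT, 6.57 in endo, 4.75 in LOH and 3.45 in B. PT had the lowest Junb mean in both libraries. In the authors' deposited table Junb was called in T (adjusted p of 6.05e-09), Marco (9.37e-79), PT (1.2e-248) and LOH (0.00585), and its adjusted p was 1 in endo and B. Jun and Junb differed in their clusters, with ratios of 2.56 for Jun beside 18.3 for Junb in T, and of 27.7 for Jun beside 8.71 for Junb in PT.

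Jund, which encodes the Jun protein that is usually present without stimulation, was the member called in all 6 clusters that listed it. Its senescent means were 13.4 in B, 12.2 in endo, 10.9 in PT, 8.54 in T, 8.22 in Marco and 5.23 in LOH. The young means were 5.18 in B, 1.57 in endo, 2.68 in PT, 3.15 in T, 2.21 in Marco and 2.37 in LOH. Its ratios ran between 2.21 in LOH and 7.79 in endo, and the highest of them was below the highest of Fosb (89.4), Fos (56.0), Jun (27.7) and Junb (18.3). The adjusted p of Jund in the authors' deposited table was 0 in PT, 3.52e-08 in LOH, 0.000223 in endo, 2.59e-30 in Marco, 6.66e-07 in T and 0.000115 in B. In Marco and T the ratio of Jund was below that of the median marker of the cluster. B held the highest Jund mean in both libraries.

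Among the Fos genes, Fos encodes c-Fos, the archetypal immediate early protein. Fos had a mean of 31.8 in the senescent library in Marco, against 0.941 in the young library. In B the means were 7.49 in senescent and 0.716 in young cells, in LOH 6.96 in senescent and 0.567 in young cells, in T 3.76 in senescent and 0.431 in young cells, and in PT 3.35 in senescent and 0.0598 in young cells. In endo Fos had a mean of 5.64 in the senescent library and was listed at 0 in the young library, so no ratio is given. The other ratios were 56.0 in PT, 33.8 in Marco, 12.3 in LOH, 10.5 in B and 8.73 in T. PT had the lowest Fos mean of the senescent library, so its large ratio goes with a low young mean. In the authors' deposited table Fos was called in PT (adjusted p of 0), LOH (7.36e-07) and Marco (5.56e-88). The adjusted p was 0.0656 in endo and 1 in T and B.

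Fosb, which encodes a close relative of c-Fos, was listed in 4 clusters. Its means were 2.27 in senescent cells of endo and listed at 0 in young cells of endo. In PT they were 1.71 in senescent and 0.0191 in young cells, in Marco 1.33 in senescent and 0.0467 in young cells, and in LOH 0.894 in senescent and 0.0469 in young cells. Every young mean of Fosb was thus below 0.05, and the ratios of 89.4 in PT, 28.4 in Marco and 19.1 in LOH rest on these low values. Fosb was called in PT and Marco in the authors' deposited table, with an adjusted p of 0 and 7.65e-15, and had an adjusted p of 0.104 in LOH and 0.951 in endo.

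Fosl2, which encodes Fra-2, a Fos protein without the strong activation domain of c-Fos, was listed in 2 clusters. In Marco its means were 0.443 in senescent and 0.0633 in young cells, a ratio of 7.0, and in PT they were 0.218 in senescent and 0.00991 in young cells, a ratio of 22.0. Both entries were called in the authors' deposited table, with an adjusted p of 0.00010 in Marco and 3.67e-140 in PT. Both differences were small in absolute terms, with log2 ratios of 0.44 in Marco and 0.27 in PT. In Marco the ratio of Fosl2 was slightly below that of the median macrophage marker. Fosl1, which encodes the related Fra-1, was listed in none of the 7 clusters.

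Atf3, a stress-induced member of the family that often represses, was listed in Marco only. Its mean there was 2.87 in the senescent library, against 0.218 in the young library, a ratio of 13.2 with an adjusted p of 1.32e-21 in the authors' deposited table. Batf, which pairs with Jun proteins in lymphocytes and some myeloid cells, was listed in T and Marco. In T its means were 0.573 in senescent and 0.121 in young cells, a ratio of 4.73. In Marco they were 0.240 in senescent and 0.0439 in young cells, a ratio of 5.47. Both Batf entries had an adjusted p of 1 in the authors' deposited table, and in Marco the ratio of Batf was below that of the median macrophage marker.

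**Figure D2:**
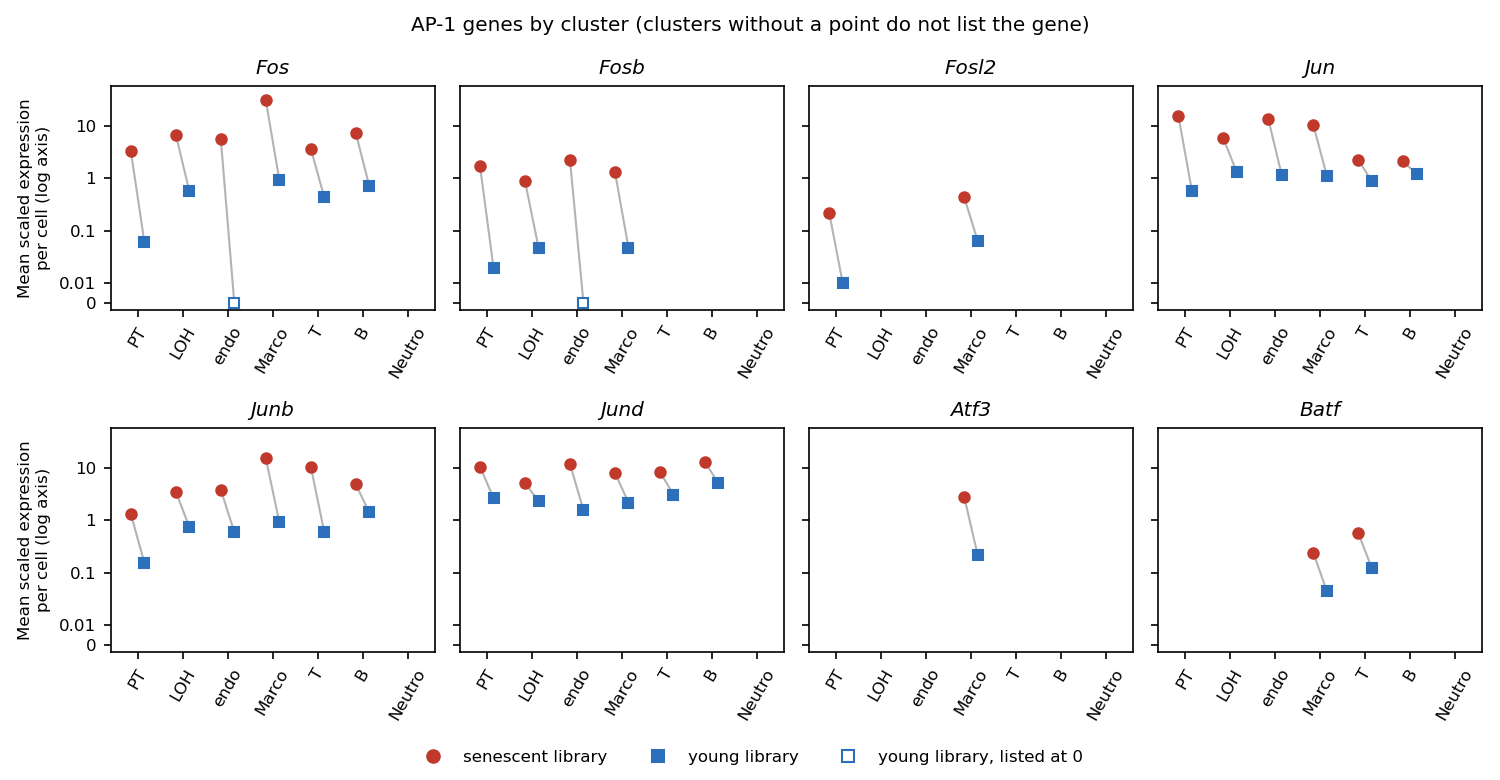
Each panel gives 1 AP-1 gene and plots its mean scaled expression per cell on a log axis for each cluster, with the senescent library as a circle left of the young library as a square. Every circle lies above its square as deposited, and the distance is shortest for Jun in B (2.15 and 1.20). Against the median of the cluster's own markers 6 pairs reverse, a comparison made in PT, Marco, T and B only. The PT pairs could not reverse, because the median marker there was itself lower in the senescent library. Open squares mark the 2 young means listed at 0, drawn at a tick marked 0 near the foot of the axis and not to scale.

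Tubule transcripts and the clusters' own markers also differed between the libraries, in either direction. The listed proximal tubule markers had lower senescent means in Marco (19 of 20 listed, summed means of 18.3 in senescent and 839 in young cells), in T (20 of 20, 16.4 in senescent and 676 in young cells), in B (19 of 20, 16.1 in senescent and 688 in young cells) and in LOH (18 of 20, 25.8 in senescent and 302 in young cells). In endo 9 of 20 were listed, all lower, at 54.4 in senescent and 386 in young cells. The androgen-dependent tubule gene Kap makes up much of these sums. Of 11 fixed endothelial markers 0 were listed for endo, and the table cannot show whether they are expressed there. In PT itself 7 of the 16 listed markers were higher and 9 lower. Transcripts of neutrophils and B cells, and most listed ones of macrophages, had higher senescent means in other clusters. The listed ones of 9 neutrophil markers had summed means of 2.05 in senescent and 0.629 in young cells of PT (2 listed), 5.42 in senescent and 0.0575 in young cells of LOH (2), 7.06 in senescent and 0.0802 in young cells of Marco (4), and 0.528 in senescent and 0.0172 in young cells of T (1). S100a8 and S100a9 were the ones listed in endo and B, at summed means of 3.21 and 1.22 in senescent cells, and both were listed at 0 in young cells there. Igkc of B cells had means of 1.59 in senescent and 0.501 in young cells of PT, 1.41 in senescent and 0.0599 in young cells of LOH, 1.99 in senescent and 0.188 in young cells of Marco, and 7.77 in senescent and 0.610 in young cells of T. In endo it had a mean of 1.51 in senescent cells and was listed at 0 in young cells. Igkc was the only 1 of 9 B cell markers listed in PT, LOH, endo and T. The listed ones of 13 macrophage markers had summed means of 1.14 in senescent and 0.0893 in young cells of LOH (2 listed). Those sums were 1.35 in senescent and 0.450 in young cells of T (1), and 5.15 in senescent and 0.951 in young cells of B (1). In endo 1 was listed, at 0.348 in senescent and 0 in young cells, and in PT 1 was higher and 1 lower. The part of these transcripts in the AP-1 differences was not tested.

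The markers of the immune clusters themselves had higher means in the senescent library. The median marker was 7.36-fold higher in Marco (13 markers listed, all higher), 3.51-fold higher in T (12 listed, all higher) and 2.37-fold higher in B (7 listed, all higher). Each AP-1 entry was therefore also set against that median, a comparison chosen after seeing the data. The markers themselves varied, with log2 fold changes between 1.54 and 4.21 in Marco, 0.77 and 3.15 in T, and 1.06 and 2.29 in B. Of the 17 entries in these 3 clusters, 11 stayed above the median marker and 6 fell below it. In Marco, Fos remained 4.6-fold, Fosb 3.85-fold, Junb 2.27-fold, Atf3 1.79-fold and Jun 1.29-fold above the median macrophage marker. Fos and Fosb exceeded all 13 of these markers. Jund, at 0.505 times the median marker, Batf at 0.742 times and Fosl2 at 0.950 times were below it. These exceeded 1, 4 and 6 of the 13 markers, in that order. In T, Junb remained 5.21-fold above the median T cell marker and above all 12, and Fos was 2.49-fold and Batf 1.35-fold above it. Jund and Jun lay at 0.773 and 0.729 times the median marker, each above 1 of the 12. In B, Fos was 4.42-fold above the median B cell marker and above all 7, and Junb was 1.46-fold and Jund 1.09-fold above it. Jun lay at 0.756 times the median B cell marker and above 0 of the 7. Fos and Junb were therefore the members above the median marker in all 3 immune clusters. Of the entries above it in these clusters, Fos and Batf in T and Fos and Junb in B were not called. In PT the median of the 16 listed tubule markers was 0.70 times its young level, with log2 fold changes between -5.07 and 2.04. Any entry with a higher senescent mean lies above such a median, so it was fixed in advance that all 6 entries did. Fos, Fosb, Fosl2, Jun and Junb also exceeded all 16 markers.

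**Figure D3:**
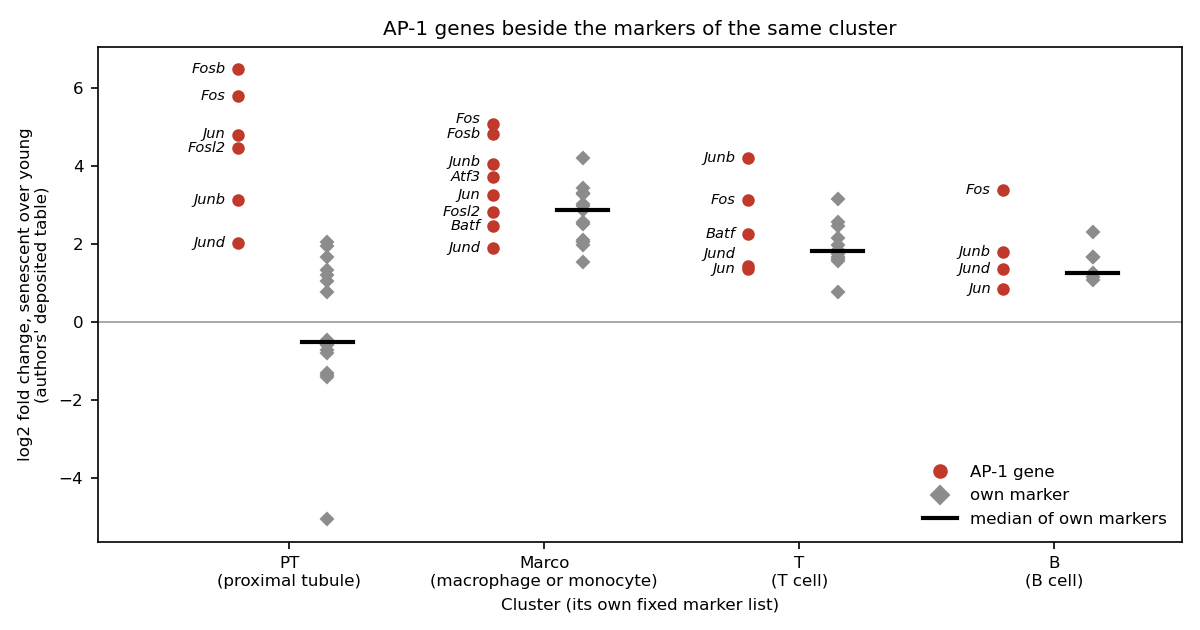
The plot gives the log2 fold change of senescent over young in the authors' deposited table for the AP-1 genes (circles) and the fixed markers of the same cluster (diamonds, with a bar at their median) in PT, Marco, T and B. Fos stands above the bar in all 4 clusters, whereas Jund lies below it in Marco and T and Jun below it in T and B. In PT the bar lies at -0.52, so every gene with a higher senescent mean stands above it.

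Genes that act with AP-1 were taken from lists chosen with earlier results of these data known. Of 20 related basic leucine zipper genes, 14 were listed, with 27 entries higher and 4 lower, of which 15 were called higher and 0 lower. Of the 15, 10 were in PT (of 12 listed) and 5 in Marco (of 8 listed), where 57.2% and 22.9% of all listed genes were called higher. Their median log2 ratio was 0.32 in PT over 12 listed genes and 0.72 in Marco over 8. Batf3, a relative of Batf known from dendritic cells, had means of 0.952 in senescent and 0.0749 in young cells of Marco. Nfe2l2, which encodes the oxidative stress regulator NRF2, had means of 2.61 in senescent and 0.542 in young cells of Marco, and Bach1, a repressor at related sites, had means of 1.44 in senescent and 0.288 in young cells, but the folds of both were below that of the median macrophage marker. In PT, Maf had means of 10.3 in senescent and 2.00 in young cells, and Mafg, a small Maf partner protein, had means of 1.65 in senescent and 0.360 in young cells. Maf was among the 4 lower entries in Marco, at 1.82 in senescent and 2.76 in young cells, and in B, at 0.794 in senescent and 2.49 in young cells, with an adjusted p of 1 and 0.126 in the authors' deposited table.

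Of 25 kinases and transcription factors upstream of AP-1, 17 were listed, with 35 entries higher and 1 lower, and 16 were called higher. Most had low means, and on the log2 ratio scale their median was below that of the AP-1 genes, with a value of 0.21 in PT over 13 listed genes and 0.46 in Marco over 10. In PT 11 of 13 listed were called higher, beside 57.2% of all listed genes, and in Marco 5 of 10, beside 22.9%. Mapk8, which encodes the Jun kinase JNK1, had means of 0.203 in senescent and 0.0378 in young cells of PT. Map3k1, a kinase above JNK, had means of 0.603 in senescent and 0.0502 in young cells of PT, and 1.08 in senescent and 0.201 in young cells of Marco. In Marco the factors Mef2a (2.03 in senescent, 0.482 in young cells), Mef2c (1.23 in senescent, 0.366 in young cells) and Elk3 (0.566 in senescent, 0.0666 in young cells), and the kinase gene Map3k8 (0.482 in senescent, 0.10 in young cells), were also called, but of the 5 called there Elk3 alone had a fold above that of the median macrophage marker. Srf and Elk1, which act at the Fos promoter, were not listed in any cluster.

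Phosphatases that switch off MAP kinases and proteins that degrade short-lived mRNAs had differences closer in size to those of AP-1. Of the 10 genes of that list 8 were listed, with 31 entries higher and 2 lower, and 13 were called higher. Of these, 5 of 5 listed were in PT, 2 of 5 in LOH, 5 of 6 in Marco and 1 of 6 in T, where 57.2%, 2.16%, 22.9% and 3.85% of all listed genes were called higher. Their median log2 ratio was 1.31 in PT, 0.88 in LOH, 1.52 in endo, 1.31 in Marco, 1.14 in T, 0.99 in B and -0.30 in Neutro. Dusp1, a MAP kinase phosphatase, had means of 9.99 in senescent and 0.613 in young cells of Marco, and 5.16 in senescent and 0.416 in young cells of PT. It was the listed gene of this group in Neutro with a higher mean, at 25.6 in senescent and 9.41 in young cells, with an adjusted p of 1 in the authors' deposited table. Zfp36, which encodes the mRNA decay factor tristetraprolin, had means of 11.4 in senescent and 0.873 in young cells of Marco. Its relatives Zfp36l1, at 7.64 in senescent and 0.456 in young cells of PT, and Zfp36l2, at 8.33 in senescent and 1.5 in young cells of T, were called as well. Dusp6, another such phosphatase, had means of 0.684 in senescent and 0.157 in young cells of Marco, and 0.424 in senescent and 4.51 in young cells of Neutro, with an adjusted p of 1 there in the authors' deposited table. Against the median macrophage marker, Dusp1 and Zfp36 stayed above in Marco, whereas Dusp6, Zfp36l1 and Zfp36l2 did not.

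Textbook AP-1 target genes went both ways. Of the 18, 11 were listed, with 21 entries higher and 13 lower, and 12 were called higher and 5 lower. The 12 were 5 of 7 listed in PT, 3 of 6 in LOH and 4 of 9 in Marco, beside 57.2%, 2.16% and 22.9% of all listed genes. The 5 were 2 in PT, 2 in Marco and 1 in T, where 5.6%, 23.6% and 20.7% of all listed genes were called lower. Spp1, which encodes osteopontin, had means of 62.4 in senescent and 2.62 in young cells of PT. It was higher in every cluster that listed it. The means in senescent and young cells were 101 and 13.1 in LOH, 6.47 and 0.909 in Marco, 6.82 and 1.29 in T, and 6.52 and 1.00 in B. Spp1 was called in PT, LOH and Marco, but its fold in Marco was below that of the median macrophage marker. Ccnd1, which encodes cyclin D1, had means of 4.21 in senescent and 0.247 in young cells of PT. In Marco the chemokine gene Ccl2 had means of 3.04 in senescent and 0.108 in young cells, the adhesion receptor gene Cd44 had means of 1.64 in senescent and 0.184 in young cells, and the metallothionein gene Mt1 had means of 4.95 in senescent and 0.689 in young cells, which for Mt1 is a fold below that of the median macrophage marker. Mt2 was called in LOH, at 3.22 in senescent and 0.961 in young cells. Of 7 entries in T 2 were higher, and of 4 in B 1 was, beside 44.8% and 28.2% of all listed genes. Mmp3, Mmp9, Mmp13, Timp1, Il6, Areg and Il2 were not listed in any cluster.

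**Figure D4:**
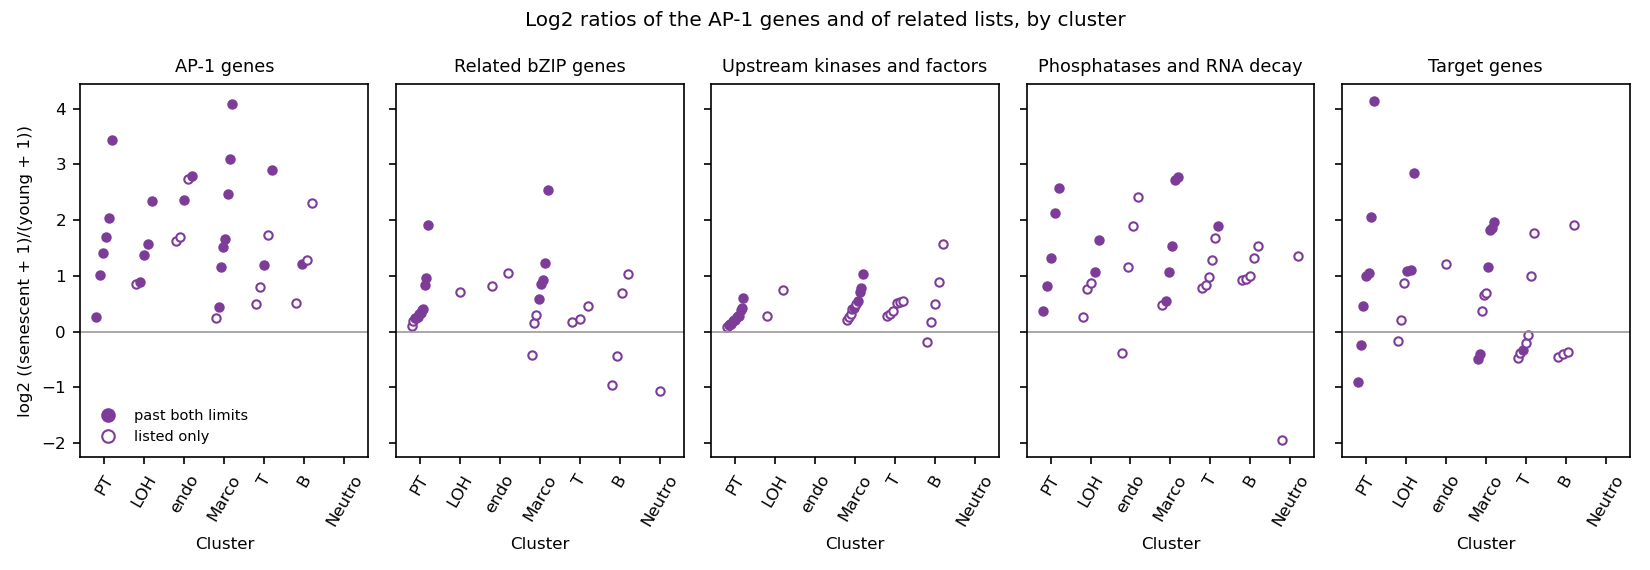
Each point is 1 gene in 1 cluster, placed by log2 of senescent over young with 1 added to both means, and filled where it passed the adjusted p and fold limits, for the AP-1 genes and the 4 related lists. The AP-1 panel lies wholly above 0 as deposited, and the target gene panel spreads to both sides, between -0.91 and 4.13. Against the cluster's own markers 6 AP-1 entries reverse, as do 22 of the 30 higher entries of the 4 lists in Marco, 6 of 17 in T and 1 of 12 in B. In PT 0 of 35 do, but none could, because the median marker there was itself lower in the senescent library.

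The genes whose log2 ratios over the 6 clusters lay nearest to those of Fos, Jun and Junb were sought among the other 176 genes listed in all 6, by the root mean square difference. For Fos they were Apoe (0.71), Dusp1 (0.99), Junb (1.04), Zfp36 (1.18) and the histone gene H3f3b (1.22). For Jun they were Dusp1 (0.75), Txnip (0.83), Zfp36l1 (0.87), the antiproliferative gene Btg2 (0.93) and Jund (0.94). For Junb they were Ly6e (0.66), H3f3b (0.73), Igkc (0.78), Dusp1 (0.80) and B2m (0.80). Dusp1 was among the 5 nearest genes of all 3 members. The clusters share their 2 libraries, and with a pseudocount of 0.1 only 1 of the 5 genes named for Fos was named again, against 4 for Jun and 3 for Junb.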

How the data were processed

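Reads were processed with Cell Ranger 2.1.1 against mm10, per the submitters' processing notes. Cell filters, doublet treatment, clustering, scale factor and test are not given in the sources used here. Deposited signal is the authors' mean of scaled expression per cell of a cluster, and the labels' descriptions tie each column to its library, on which every direction rests, since the contrast is headed C57 against WT with a numeric code, which is unexplained and matches neither group's label. The authors' deposited log2 fold changes equalled log2 of senescent over young with 0.0001 added to both means, within 0.01, for every AP-1 entry. The deposited p-value column holds only values under 0.05, and the adjusted p equals the p-value times about 32574 in the median entry. Depth is unknown, so no interval was computed. Members and lists were chosen with earlier results of these data known. Named genes were all members, up to 6 genes per related list by log2 ratio among those at or under an adjusted p of 0.05, and the 5 nearest genes of Fos, Jun and Junb. Mapk8, genes named as not listed, lower Maf entries, Dusp1 in Neutro, and Kap, S100a8, S100a9, Igkc, Plau and Vegfa were chosen after their values were seen, and 2 genes that the rule names are not reported here. Symbols of all 9 members were matched to the RefSeq table of GRCm38.p6. The counting and nearest-gene code was tested on simulated data. No test between groups was run. Alternatives were other limits, pseudocounts and scalings. Python 3.11.15, numpy 2.4.6, pandas 2.3.3 and matplotlib 3.10.9 were used.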

Additional observations from a re-analysis of the deposited data

Results flagged for a closer look

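No AP-1 gene was called in opposite directions in different clusters. Among the related lists, 3 target genes were, and the differences between clusters were not tested. The log2 fold changes are those of the authors' deposited table. Mt1 had means of 4.95 in senescent and 0.689 in young cells of Marco, and 0.172 in senescent and 1.20 in young cells of PT, so that its log2 fold change was higher in Marco by 5.65. Plau, which encodes urokinase, had means of 1.56 in senescent and 0.277 in young cells of PT, and 0.190 in senescent and 0.675 in young cells of Marco, and its log2 fold change was higher in PT by 4.32. Vegfa had means of 2.12 in senescent and 0.505 in young cells of PT. Its means were 0.167 in senescent and 0.534 in young cells of Marco, and 0.202 in senescent and 0.511 in young cells of T. Its log2 fold change was higher in PT by 3.75 than in Marco and by 3.41 than in T. In both Marco and T the proximal tubule markers also had lower senescent means, and their part in the lower Plau and Vegfa was not tested.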

How the results depend on the processing

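The count of members called higher stayed within 1.5 times its value in every cluster at an adjusted p of 0.01, an absolute log2 fold change of 0.5 and minimum means of 0.1 or 1 in the higher library. Without an adjusted p, it was 5 in endo, 5 in T and 3 in B. At an absolute log2 fold change of 2, it was 1 in T and 0 in B. Counts of members called lower were 0 under all of these. With a pseudocount of 0.1, the median log2 ratio of the members was 3.21 in PT, 2.11 in LOH, 3.48 in endo, 3.18 in Marco, 1.61 in T and 1.53 in B. With 0.0001, it was 4.62 in PT, 2.25 in LOH, 3.59 in endo, 3.48 in Marco, 2.24 in T and 1.58 in B. Low young means raise these values, by the construction of the pseudocount. Dividing each mean by the sum of the listed means shifted log2 ratios by at most 0.15 in the clusters that list members (endo). In each of these clusters the senescent means had the lower sum, so every log2 ratio rose. That all 33 stayed above 0 was thus fixed in advance. Against the median marker of the cluster, chosen after seeing the data and applied in PT, Marco, T and B only, 6 log2 ratios reversed. They were Jund (-0.60), Batf (-0.016) and Fosl2 (-0.0042) in Marco, Jun (-0.20) and Jund (-0.27) in T, and Jun (-0.21) in B. Those in PT could not reverse, because the median marker there was itself lower in the senescent library. No paired analysis was possible because each group had 1 library. Depth and cells per cluster are unknown, so means listed at 0 carry no upper limit.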
